A study of Homo sapiens with 6 samples.

Results

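Transcripts of 8 genes that make microRNAs were followed in Ago2 precipitates: DROSHA, DGCR8, XPO5, DICER1, TARBP2, PRKRA, DDX5 and DDX17. They were chosen by gene name from a count table of 48162 genes, in which each name occurred once. All 8 were among the 16233 genes with enough counts to be tested. None was higher (0) or lower (0) with the microRNA-219 mimic at an adjusted p under 0.05 in edgeR, and the 95% confidence interval of every one of the 8 lay inside a 2-fold change, as did that of 84.4% of all tested genes. TARBP2 was lower with the mimic within each of the 3 dates of collection, by 0.18 to 0.28 on the log2 scale. The same sign on all 3 dates was found for 30% of all tested genes. The groups of libraries of TARBP2 overlapped and it did not pass the test. The means of DROSHA ran from 88.6 to 143 CPM (normalised counts per 1000000 counts) between dates and were 109 and 126 CPM in the control and mimic groups. The mean of 143 CPM, on 22 August, came from a mimic library at 166 CPM and a control library at 120 CPM. Each date was also tested against the others. DROSHA did not pass on 22 August (edgeR adjusted p = 0.482) or on 18 September (edgeR adjusted p = 0.203). With no filter on low counts it passed on 18 September (edgeR adjusted p = 0.00911), as did 1.72% of the genes then tested.

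HEK293, an established human embryonic kidney line, was the host in every library. All cells received Flag-tagged Ago2, the protein that holds a small RNA in the silencing complex. Of the 6 libraries, 3 came from cells that also received the mimic of microRNA-219 and 3 from cells given a negative control mimic, with 1 library of each kind from 22 August, 5 September and 18 September. RNA that came down with anti-Flag agarose was sequenced, and no unprecipitated RNA was used here. A difference in the level of a transcript in the cell therefore cannot be told apart from a difference in its binding to Ago2. The labels do not state whether the dates were separate cultures, so the p-values measure spread between these libraries, which may be technical.

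MicroRNAs are cut from longer transcripts in successive steps. In the nucleus the Microprocessor, made of the ribonuclease DROSHA and its RNA-binding partner DGCR8, trims the primary transcript to a hairpin, with the help of the DEAD-box helicases DDX5 and DDX17 for some precursors. Exportin-5, encoded by XPO5, carries the hairpin to the cytoplasm with the GTPase RAN. There the ribonuclease DICER1, with a double-stranded RNA-binding partner (TRBP, encoded by TARBP2, or PACT, encoded by PRKRA), removes the loop, and 1 strand of the duplex is loaded into an Argonaute protein. A synthetic mimic is delivered as a short RNA and is generally taken not to need the DROSHA step.

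The natural microRNA-219a precursor is shown first, because it is the kind of molecule the 8 gene products act on. The hairpin of the 219a-2 gene, a name that the series title carries, lies at chr9:128392618-128392714 of GRCh38.p14 on the minus strand in RefSeq. Capitals mark the arms that remain after both cuts, 5p first and 3p second, and the lower-case stretch between them is the loop that DICER1 removes.
MIR219A2 hairpin: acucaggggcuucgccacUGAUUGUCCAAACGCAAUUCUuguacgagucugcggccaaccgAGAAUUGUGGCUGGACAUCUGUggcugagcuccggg

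The mature products are given with their seed, bases 2 to 8, in capitals. The 5p strand is the same from both 219a genes, whereas the 3p strands differ in seed. The labels do not say which strand the mimic carries.
hsa-miR-219a-5p: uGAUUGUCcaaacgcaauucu
hsa-miR-219a-1-3p: aGAGUUGAgucuggacgucccg
hsa-miR-219a-2-3p: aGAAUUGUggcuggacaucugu

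Some of the 8 genes also lie over microRNAs of their own. In RefSeq (GRCh38.p14), where all 8 symbols matched, the DGCR8 gene holds 3 mature microRNAs, the DICER1 gene 2 and the DDX5 gene 3, and the other 5 genes hold none in that table. They are shown because reads from these precursors share the host gene's strand, and no row of the count table was read for them. Capitals again mark the seed, and no 2 of them have the same one.
hsa-miR-3618 in DGCR8: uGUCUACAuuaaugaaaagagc
hsa-miR-1306-5p in DGCR8: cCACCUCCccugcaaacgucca
hsa-miR-1306-3p in DGCR8: aCGUUGGCucugguggug
hsa-miR-3173-5p in DICER1: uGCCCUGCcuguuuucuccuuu
hsa-miR-3173-3p in DICER1: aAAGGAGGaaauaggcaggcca
hsa-miR-3064-5p in DDX5: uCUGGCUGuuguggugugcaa
hsa-miR-3064-3p in DDX5: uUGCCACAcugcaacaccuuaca
hsa-miR-5047 in DDX5: uUGCAGCUgcgguuguaaggu

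The libraries held 20233819 to 34408699 counts. AGO2, the transfected gene, took 10.6 to 18.0% of them, with near equal means in both groups (log2 fold change 0.08, 95% CI −0.61 to 0.77, edgeR adjusted p = 0.999). Its counts do not separate the tagged copy from the cell's own gene, and no measure of the mimic itself was used here. All 5 transcripts listed as HEK293 markers (PAX2, LHX1, NEFM, INA and LIN28B) had counts in every library. Of 11 markers of blood, gut, plasma and liver cells found in the table, 4 to 9 had a count in a library, and they summed to between 0.318 and 16.4 CPM in mimic libraries, and to 31.7, 688 and 25.01 CPM in control libraries, in date order. The highest value was the control library of 5 September, where the haemoglobin gene HBB alone reached 678 CPM. IGKC had 0 counts in all 6 libraries and PTPRC had 1 count in all. IGHA1, which marks plasma cells, had 0, 146 and 135 counts in mimic libraries, in date order, and 422, 0 and 257 in control libraries. PIGR, also among the 11, had 3, 51 and 112 counts in mimic libraries and 277, 1 and 130 in control libraries. FABP1 had 0, 45 and 51 counts in mimic libraries and 85, 0 and 67 in control libraries. The part of these transcripts in the results below was not tested.

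The 8 transcripts together took 1454 to 1585 CPM of a library before normalisation. Levels of different genes were compared per length, as RPKM (normalised CPM per kilobase of gene model). DDX5 came first with 170 ± 19.0 RPKM (mean ± SD over 6 libraries), above 98.7% of the 13805 protein-coding genes tested. DDX17 followed with 59.6 ± 6.04 RPKM and XPO5 with 39.8 ± 4.25 RPKM. DROSHA (22.2 ± 5.37 RPKM) and TARBP2 (21.5 ± 2.99 RPKM) could not be ordered: DROSHA was the higher of them in 3 of 6 libraries. PRKRA had 15.8 ± 3.16 RPKM and DGCR8 11.4 ± 1.04 RPKM, with overlapping ranges. DICER1 was last with 7.10 ± 1.10 RPKM, near the middle of the protein-coding genes, of which 51.3% were lower. Ranges over the 6 libraries did not overlap between DDX5 and DDX17, DDX17 and XPO5, XPO5 and DROSHA, or DGCR8 and DICER1.

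**Figure D1:**
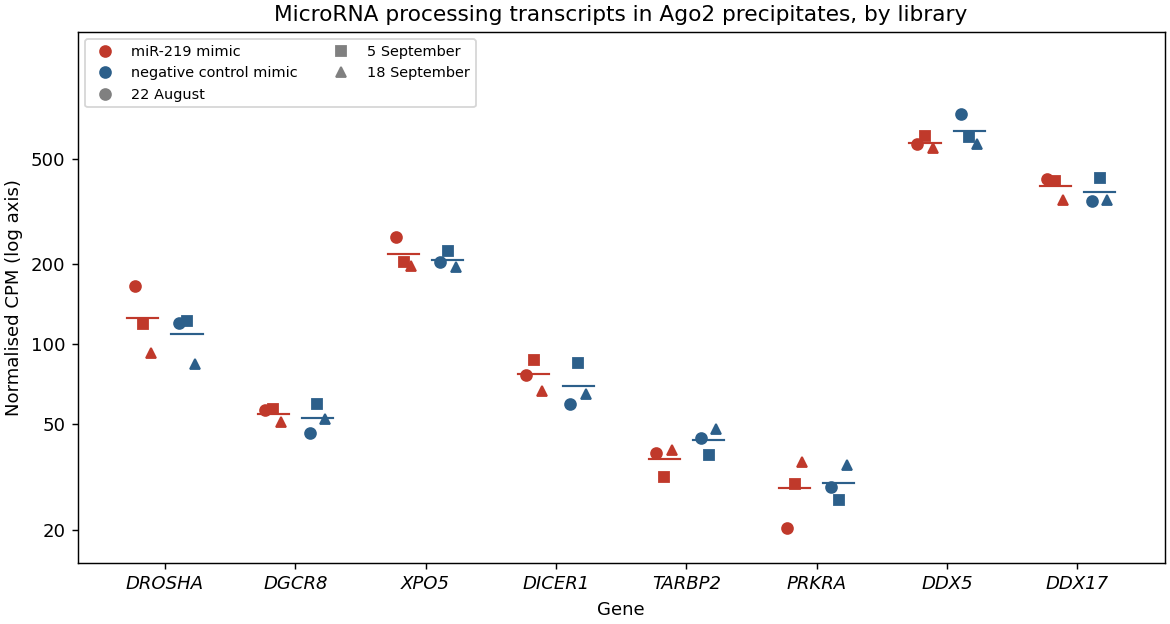
Normalised CPM (log axis) of the 8 transcripts in each library, with mimic libraries in red, control libraries in blue, a marker shape for each date and a line at each group mean. The colours overlap for every gene, and DROSHA spreads from 84.3 to 166 CPM over the libraries.

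The nuclear cutting enzyme came first. DROSHA (ENSG00000113360, chr5:31400604-31532303 of hg19, minus strand) stood at 166, 119 and 93.0 normalised CPM in the mimic libraries, in date order, and at 120, 122 and 84.3 CPM in the control libraries. The mimic library of 22 August was the highest and both libraries of 18 September were the lowest, so the groups overlapped. Group means were 126 ± 36.8 CPM (mimic) and 109 ± 21.5 CPM (control, n = 3 in either), and the log2 fold change was 0.21 (SE 0.21, 95% CI −0.25 to 0.67, edgeR adjusted p = 0.999). This interval was the only one of the 8 that reached past a 1.5-fold change, and 55.6% of all tested genes had theirs inside it. Without the mimic library of 22 August the value of DROSHA was −0.04.

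DGCR8 (ENSG00000128191, chr22:20067755-20099400, plus strand), whose product positions DROSHA on the hairpin, was steadier. It had 56.7, 56.9 and 50.7 CPM in mimic libraries against 46.3, 59.5 and 52.3 CPM in control libraries. The highest and the lowest library were both controls. The log2 fold change of DGCR8 was 0.06 (SE 0.14, 95% CI −0.25 to 0.36), which left out a change of 1.5-fold either way.

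The helicases that assist the Microprocessor, also known as RNA-binding coregulators of transcription and splicing, had values of opposite sign. DDX5 (ENSG00000108654, chr17:62495734-62504317, minus strand) had 567, 610 and 550 CPM in mimic libraries against 735, 605 and 567.5 CPM in control libraries, so a single control library, that of 22 August, stood above the other 5. Its log2 fold change was −0.14 (SE 0.15, 95% CI −0.48 to 0.19). The value of DDX5 was −0.03 without that library. DDX17 (ENSG00000100201, chr22:38879445-38903665, minus strand) had 421, 412 and 349 CPM in mimic libraries against 348, 425 and 350 CPM in control libraries. Its log2 fold change was 0.07 (SE 0.15, 95% CI −0.25 to 0.40), and that of DDX17 was 0.18 without the control library of 5 September.

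XPO5 (ENSG00000124571, chr6:43490072-43543812, minus strand), the export carrier, had 254, 205 and 197 CPM in mimic libraries against 204, 225 and 195 CPM in control libraries. Again the mimic library of 22 August was highest and the rest lay close together. The log2 fold change of XPO5 was 0.07 (SE 0.15, 95% CI −0.25 to 0.39). POLR1C, which overlaps XPO5 on the other strand, had 21.7% as many counts, and whether counting kept strands apart is not given in the sources used here.

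DICER1 (ENSG00000100697, chr14:95552565-95624347, minus strand), the cytoplasmic cutting enzyme, had 76.8, 87.5 and 66.9 CPM in mimic libraries against 59.3, 84.7 and 65.1 CPM in control libraries. Both groups had their highest value on 5 September. The mimic library was above its control on each date, by log2 values of 0.37, 0.05 and 0.04, and the last 2 were close to 0. Over all libraries the log2 fold change of DICER1 was 0.14 (SE 0.16, 95% CI −0.22 to 0.50). It was 0.04 without the control library of 22 August and 0.31 without that of 5 September.

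TARBP2 (ENSG00000139546, chr12:53894705-53900215, plus strand), which encodes the Dicer partner TRBP, had 39.0, 31.6 and 39.8 CPM in mimic libraries against 44.3, 38.3 and 47.9 CPM in control libraries. Within each date the mimic library was the lower one, with log2 ratios of −0.18, −0.28 and −0.27. The groups still overlapped, because the control library of 5 September was below both mimic libraries of the other dates. Group means were 36.8 ± 4.52 and 43.5 ± 4.86 CPM (n = 3 in either), and the log2 fold change was −0.24 (SE 0.15, 95% CI −0.56 to 0.08, edgeR adjusted p = 0.999). The exact permutation p of TARBP2 was 0.3, two-sided, where 3 against 3 cannot go below 0.1. With the date as a block its unadjusted p by edgeR was 0.0452 and its adjusted p 0.824, so the call did not change. Of all tested genes 5.75% had an unadjusted p under 0.05 in that fit. Without the mimic library of 5 September the value of TARBP2 was −0.14.

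PRKRA (ENSG00000180228, chr2:179296141-179316239, minus strand), which encodes the other Dicer partner, PACT, had 20.3, 29.7 and 36.1 CPM in mimic libraries against 28.9, 25.9 and 35.0 CPM in control libraries. The mimic library of 22 August was the lowest, and both libraries of 18 September were the highest. Its log2 ratios were −0.51, 0.20 and 0.04 in date order, and the log2 fold change of PRKRA was −0.06 (SE 0.20, 95% CI −0.50 to 0.37). Without the mimic library of 22 August it was 0.14. An antisense gene that overlaps PRKRA had 21.5% as many counts.

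As a group the 8 transcripts lay 5 above and 3 below 0, with a median log2 fold change of 0.06, where all tested genes had a median of 0.00. The background of calls was the same: 0% of 16233 genes passed in either direction by edgeR. At an unadjusted p under 0.05 the members counted 0 of 8, beside 3.01% of all genes. Groups of libraries did not overlap for 0 of the 8, beside 8.06% of all genes. The same sign on all 3 dates was found for 2 of the 8 (DICER1 and TARBP2), beside 30% of all genes. DESeq2 also called 0 of the 8, beside 0.0175% of all genes, and limma-voom 0, beside 0%. At an unadjusted p under 0.05 each had 0 of the 8, beside 1.59% of all genes in DESeq2 and 2.95% in limma-voom. The median size of the log2 fold change was 0.11 among the 8 and 0.13 among all tested genes.

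**Figure D2:**
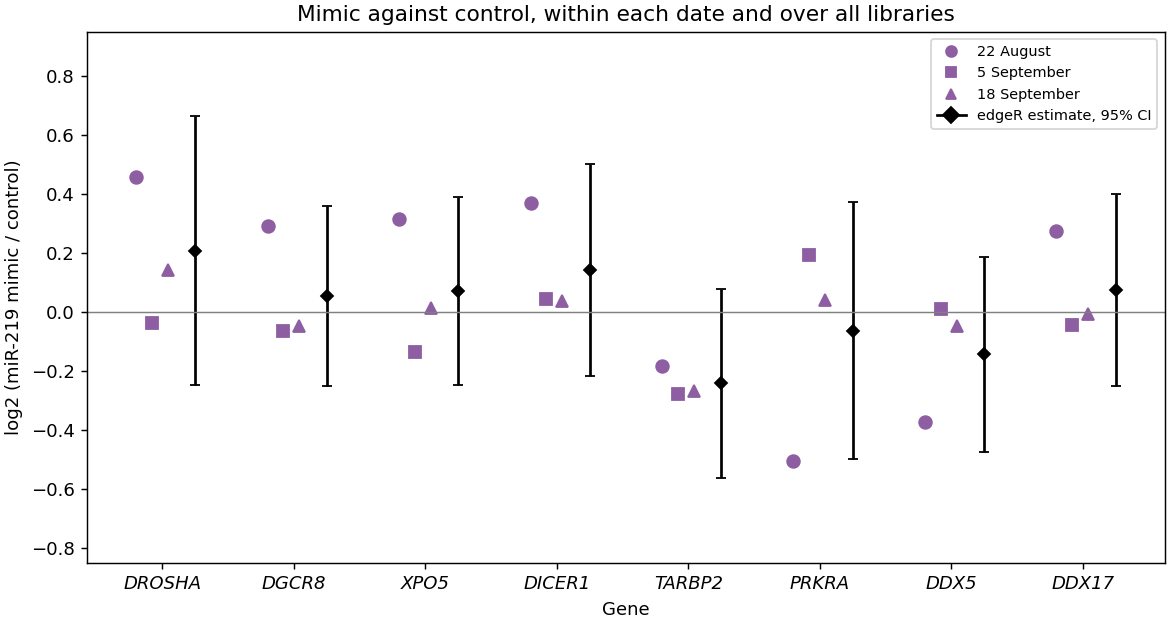
Log2 ratio of mimic to control for each gene, as purple markers for the single pair of libraries of each date and as a black diamond with its 95% confidence interval for the edgeR fit over all 6 libraries. Every interval crosses 0, TARBP2 has all of its markers below 0, and the circles of 22 August lie farthest from 0 for 7 of the 8 genes.

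The pair of 22 August carried the largest ratio of mimic to control for 7 of the 8 genes, all but TARBP2, beside 52.4% of all tested genes. The mimic library of that pair also stood apart in its make-up: mitochondrially encoded genes took 13.3% of its counts, against 5.66 to 8.39% in the other 5 libraries. With AGO2 and the mitochondrial genes left out, DROSHA was 0.21 and TARBP2 −0.24, and 0 of the 8 were called. On 22 August the 5 genes with the longest models (DGCR8 with 4695 bases, DROSHA, XPO5, DDX17 and DICER1 with 10331 bases) had ratios above 0, from 0.28 to 0.46. The 3 with shorter models (DDX5 with 3558 bases, TARBP2 and PRKRA) had ratios below 0. Gene length moved with the ratio across the table as well. The bound used, 4000 bases, lies between DDX5 and DGCR8, where the signs of the 8 split on 22 August. For the 5760 tested genes of 4000 bases or more the median log2 ratio on 22 August was 0.20. It was −0.10 for the 10473 shorter ones. These medians were −0.01 and 0.01 on 5 September and 0.02 and −0.04 on 18 September.

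The trend with gene length was then removed from each library, a setting chosen after the data were seen. Long genes had a higher median ratio on 22 August, so a fall in their values was built into this removal. Length as a cause was not tested. The values of the long genes moved towards 0. DICER1 went from 0.14 to −0.00019, XPO5 from 0.07 to −0.0019, DDX17 from 0.07 to −0.02 and DGCR8 from 0.06 to 0.01. DROSHA went from 0.21 to 0.13 and TARBP2 from −0.24 to −0.19, with 0 of the 8 called. TARBP2 was then the only one of the 8 with the same sign on all dates (log2 ratios −0.05, −0.29 and −0.24), beside 28.3% of all tested genes. The ratio of 22 August was then the largest for 5 of the 8, beside 48.2%. DDX5 had −0.14 before and −0.16 after, and its ratio on 22 August was then the farthest from 0 among the 8, at −0.42.

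Dates were compared next, each against the mean of the others with the mimic as a term, over both groups. On 22 August 0 of the 8 passed in edgeR, beside 0.339% of all genes, and 1 had an unadjusted p under 0.05, beside 6.89%. On 5 September 0 passed, beside 0% of all genes, and 2 had an unadjusted p under 0.05, beside 12.9%. On 18 September 0 passed, beside 0.0493%, and 2 had an unadjusted p under 0.05, beside 16.4%.

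DROSHA had the widest range over dates on the log2 scale. Its mean was 143 CPM on 22 August, 121 CPM on 5 September and 88.6 CPM on 18 September, with the lowest value on 18 September in both groups and nearly equal control libraries on the other dates. It stood 0.45 above the other dates on 22 August on the log2 scale (SE 0.13, edgeR adjusted p = 0.482) and −0.57 against them on 18 September (SE 0.13, edgeR adjusted p = 0.203). With no filter on low counts the value of DROSHA on 18 September was −0.60 and passed (edgeR adjusted p = 0.00911), as did 1.72% of the 28658 genes then tested. In that setting 0 of the 8 passed on 22 August, beside 0.837% of all genes, and 0 on 5 September, beside 0.712%. With the length trend removed and the filter kept, the value of DROSHA on 18 September was −0.47 and did not pass (edgeR adjusted p = 0.169).

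PRKRA had the opposite order of means, with 24.6, 27.8 and 35.5 CPM in date order. Its control libraries did not follow that order, with 28.9, 25.9 and 35.0 CPM. It was 0.45 above the other dates on 18 September (SE 0.16, edgeR adjusted p = 0.261). DICER1 was 0.37 above the others on 5 September (SE 0.12, adjusted p = 0.364) and TARBP2 −0.29 against them (SE 0.11, adjusted p = 0.371). With the length trend removed these became 0.33 for PRKRA, 0.11 for DICER1 and −0.18 for TARBP2. DGCR8, XPO5, DDX5 and DDX17 stayed within 0.20 of the other dates on every date.

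**Figure D3:**
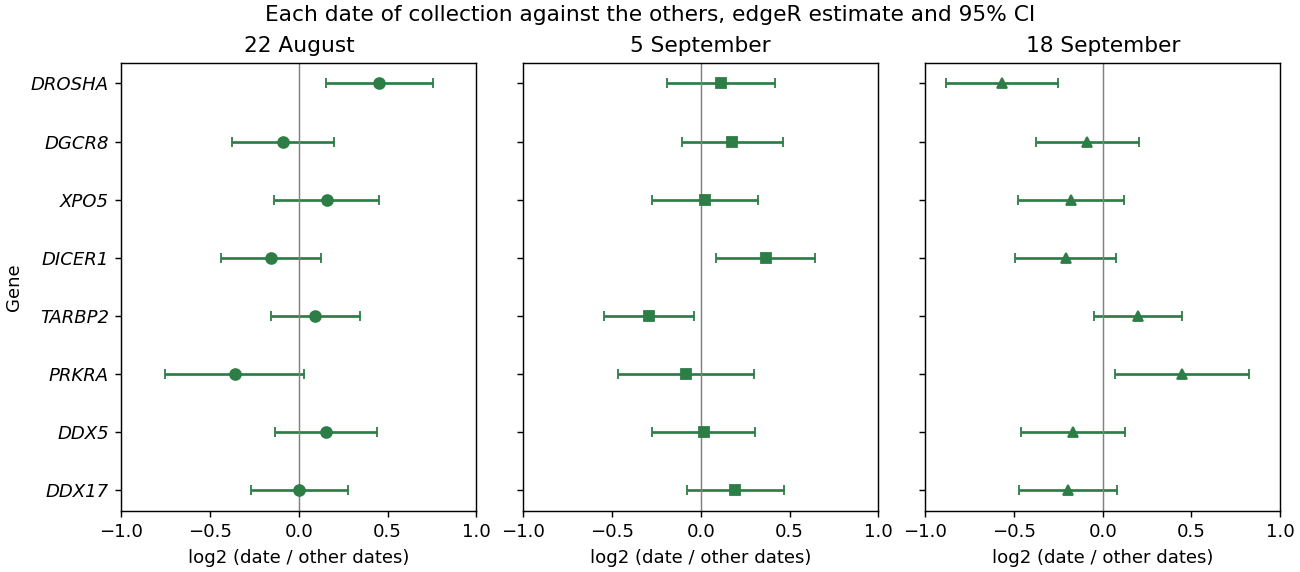
Log2 difference of each date of collection from the mean of the other dates, edgeR estimate with its 95% confidence interval, 1 panel per date and 1 row per gene. DROSHA stands at 0.45 on 22 August and −0.57 on 18 September and PRKRA at −0.36 and 0.45, while none of the differences passed over all genes.

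Ratios of partner transcripts within a library do not depend on how the libraries are scaled, and 4 were compared. The trend with gene length was not removed from these ratios. DROSHA had 2.92, 2.10 and 1.83 counts per DGCR8 count in the mimic libraries, in date order, and 2.601, 2.06 and 1.61 in the control libraries. The order of dates was the same in both groups, and the mimic was 0.13 above the control in mean log2 ratio (two-sided exact permutation p = 0.6, n = 3 each). Within dates the mimic library was the higher one each time, by 0.17, 0.03 and 0.19 (paired exact permutation p = 0.25, the smallest that 3 pairs can give). DICER1 had 0.463, 0.733 and 0.719 counts per DROSHA count in mimic libraries and 0.493, 0.692 and 0.773 in control libraries, with the lowest value on 22 August in both groups (log2 difference −0.04, exact permutation p = 0.7).

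The Dicer partners came next. TARBP2 had 1.92, 1.07 and 1.10 counts per PRKRA count in mimic libraries and 1.53, 1.48 and 1.37 in control libraries. The mimic libraries thus lay on both sides of the control libraries, with an SD of 0.48 in log2 ratio against 0.08, a difference in spread that was not tested (log2 difference −0.15, exact permutation p = 0.7, n = 3 each). The difference of TARBP2 to PRKRA was −0.43 without the mimic library of 22 August, −0.0029 without that of 5 September and −0.03 without that of 18 September.

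DDX5 had 1.35, 1.48 and 1.58 counts per DDX17 count in mimic libraries and 2.11, 1.42 and 1.62 in control libraries. The control library of 22 August stood apart from the other 5. The log2 difference of DDX5 to DDX17 was −0.21 (exact permutation p = 0.4, n = 3 each) and −0.05 without that library. Adjusted over the 4 ratios every p was 0.7, and the smallest p that the design allows is 0.1.

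**Figure D4:**
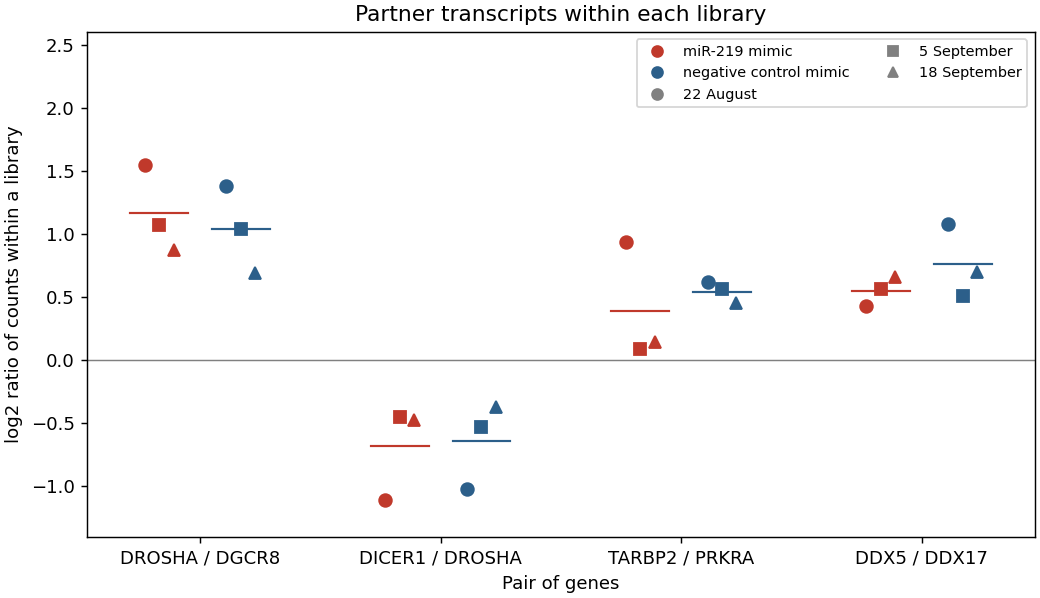
Log2 ratio of the counts of partner genes within each library, with mimic libraries in red, control libraries in blue, a marker shape per date and a line at each group mean. Groups overlap in all 4 pairs, and the circles of 22 August are the highest for DROSHA to DGCR8 and the lowest for DICER1 to DROSHA in both colours.

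The wider pathway was described with 57 other genes in 4 lists, of which 55 were tested. By edgeR 0 genes of each list were higher in mimic libraries and 0 lower, and 0 of the 55 had an unadjusted p under 0.05, beside 3.01% of all genes. With the date as a block 2 of the 55 did, BRCA1 (unadjusted p = 0.0267) and PARN (unadjusted p = 0.0456), beside 5.75% of all genes, and 0 were called (edgeR adjusted p = 0.824 for either). Groups of libraries did not overlap for 5 of the 55 (NCBP1, TUT1 and RCC1, with the mimic libraries below, and ADARB1 and XRN2, with them above), beside 8.06% of all genes. Apart from NCBP1, these 5 are named after their values were seen. Nuclear cofactors of the Microprocessor and of primary transcripts (22 tested) had 9 values above 0 and a median of −0.03 on the log2 scale. The lowest p among them were those of BRCA1, a DNA repair protein, at 0.30 (SE 0.16), and of NCBP1, the large subunit of the nuclear cap-binding complex, at −0.21 (SE 0.13). NCBP1 had 86.8, 84.2 and 76.6 CPM in mimic libraries against 104, 94.7 and 87.2 CPM in control libraries.

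The export list (6 tested) had a median of −0.03. RAN, the GTPase that exportin-5 needs to hold its cargo, had a log2 fold change of −0.27 (SE 0.16), from group means of 464 ± 38.4 CPM (mimic) and 560 ± 87.9 CPM (control, n = 3 in either), and its binding protein RANBP1 had −0.23 (SE 0.18). Genes of loading and of the Argonaute complex (14 tested) had a median of 0.09, with 9 above 0. TNRC6B, a scaffold that links Argonaute to mRNA decay, had 0.28 (SE 0.18) and AGO4 had 0.20 (SE 0.15). Genes that tail, trim or degrade precursors (13 tested of 15) had a median of 0.05, with 10 above 0. The ribonuclease ZC3H12A had 0.34 (SE 0.19) and the poly(A)-specific ribonuclease PARN had 0.24 (SE 0.16).

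**Figure D5:**
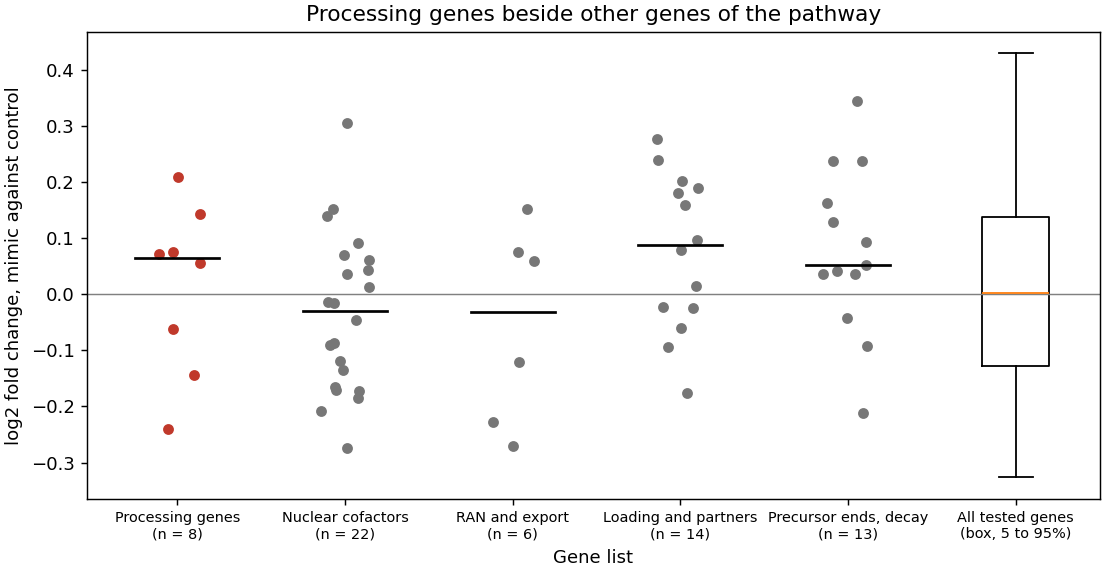
Log2 fold change of mimic against control for the 8 processing genes (red) and the tested genes of the 4 other lists (grey), each point a gene and each black line a median, with a box for all 16233 tested genes (middle line the median, box the quartiles, whiskers the 5th and 95th percentiles). The 8 genes lie from −0.24 to 0.21, inside the whiskers at −0.33 and 0.43.

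Other transcripts had nearly the same profile over the 6 libraries. Likeness was the root mean square difference of log2 CPM after each gene was centred on its own mean. The median difference from all other tested genes ran from 0.24 for DGCR8 to 0.38 for DROSHA. A nearest gene is by definition the smallest of 16232 differences over 6 values, and no link between the genes was tested. The nearest of the 16232 other tested genes to DDX17 was SAFB2, a nuclear scaffold attachment protein that was also in the list of nuclear cofactors, at 0.02. For DROSHA, which varied most, it was PPP1R18 at 0.06, and the nearest of the other 7 genes was XPO5 at 0.20. TARBP2 had ZNHIT1 at 0.02, PRKRA had E2F5 at 0.04 and DICER1 had USP31 at 0.03. DGCR8 had ZNF2, XPO5 had GALNT6 and DDX5 had GTPBP4, at 0.02 to 0.03. Within the 8, DGCR8 and DDX17 were closest to each other, at 0.06.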

How the data were processed

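Ago2-bound RNA from 6 libraries was analysed from a table of whole-number counts per gene that the authors deposited. Per the submitters' processing notes, STAR 2.5, HTSeq 0.6.1, DESeq2 and hg19 were used. All columns of samples were matched by name (0 left over). Gene lengths are those of the same table. The 8 genes and all lists were chosen with earlier results of these data known.

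Counts were tested on the whole table with edgeR 4.0.16 under R 4.3.3, by its quasi-likelihood F test (TMM, filterByExpr with min.count 10 and min.total.count 15, no block), with Benjamini-Hochberg adjustment over 16233 genes and a threshold of 0.05. Each standard error was taken as the size of the log2 fold change divided by the root of its F. A prior count of 2 was added for ratios within a date. Alternatives were limma 3.58.1 (limma-voom), DESeq2 1.42.0, other scalings and filters, date as a block, and libraries left out. Leaving out both libraries of a date and removing the trend with gene length (loess, span 0.3) were chosen after the data were seen. Figures used Python 3.11.15 and matplotlib 3.10.9. The code was tested on simulated data.

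Pairing by date comes from the labels. Their deviations from the group means correlated at 0.0466, 0.154 and 0.513 in date order, and the mimic library of 22 August correlated more with the control library of 5 September (0.243). Libraries were not duplicates (0 identical pairs). Named genes were the 8, AGO2, the 2 genes of lowest p in each list and the gene nearest in profile to each of the 8.

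The labels name an RNA kit without stating strand, and whether counting used strand is not given in the sources used here. Reads of the 8 genes and of genes on the opposite strand that overlap them may therefore not be separated.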

Additional observations from a re-analysis of the deposited data

How the results depend on the processing

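Of the 8 processing genes 0 were called in any of 19 alternative settings, and so were 0 of the pathway genes in the settings run for them. Over all genes the 0 calls became 20 with no filter on low counts (6 higher, 14 lower), 5 when DESeq2 was used and 11 when it also had a replicate block by date, and stayed at 0 with the replicate block in edgeR. The cause was not tested. Dates gave 1 call among the 8, DROSHA, with no filter on low counts.

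TARBP2 and DDX5 kept their sign in all 19 settings, at −0.32 to −0.14 and −0.23 to −0.01. Without both libraries of 22 August, DGCR8 was −0.0549, XPO5 −0.0633, DDX17 −0.0257 and PRKRA 0.11, all reversed. With the trend with gene length removed, XPO5 was −0.0019, DICER1 −0.00019 and DDX17 −0.0217, and with the block as well −0.0060, −0.0011 and −0.0218. With 1 library left out at a time, log2 fold changes ran from −0.0367 to 0.39 for DROSHA, −0.0301 to 0.15 for DGCR8, −0.0499 to 0.14 for XPO5, 0.04 to 0.31 for DICER1, 0.02 to 0.18 for DDX17 and −0.26 to 0.14 for PRKRA. PRKRA was 0.0646 without the control library of 18 September. The ratio of DROSHA to DGCR8 ran from −0.0636 to 0.30 and that of DICER1 to DROSHA from −0.23 to 0.18, while that of TARBP2 to PRKRA ran from −0.43 to −0.0029 and that of DDX5 to DDX17 from −0.34 to −0.05. With the replicate block the exact p of the 4 ratios ran from 0.25 to 0.75, where 0.25 is the smallest it can give.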

Other observations

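Genes that overlap the 8 on the opposite strand have counts of their own in the table, given here as sums over the 6 libraries beside those of the gene they overlap. Shared bases were taken between gene start and end, introns included. They can therefore exceed the length of the gene model, which is 1851 bases for PRKRA and 5360 for XPO5. AC009948.5 shares 8830 bases with PRKRA and had 978 counts, where PRKRA had 4552. POLR1C shares 7252 bases with XPO5 and had 7424 counts, where XPO5 had 34264. CEP95 shares 1612 bases with DDX5 and had 5601 counts, where DDX5 had 96551. DICER1-AS1 shares 366 bases with DICER1 and had 439 counts, where DICER1 had 11880. Overlaps were short for TRMT2A, which shares 12 bases with DGCR8 and had 7816 counts, where DGCR8 had 8630, and for RP11-793H13.11, which shares 16 bases with TARBP2 and had 770 counts, where TARBP2 had 6308. DROSHA had no overlapping gene in the table. How far reads of these neighbours entered the counts of the 8 was not tested.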
